A study of Mus musculus with 6 samples.

Results

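The genes described here are the small leucine-rich proteoglycans (SLRPs), 10 of the 23284 genes listed in the deposited tables. They were taken by gene symbol as *Dcn*, *Bgn* and *Aspn* of class I, *Fmod*, *Lum*, *Prelp*, *Kera* and *Omd* of class II, and *Ogn* and *Epyc* of class III, and all 10 symbols were found in every table. Gene expression was measured by RNA-seq in ECFP+ osteoblasts (OBs), the bone-forming cells, sorted from ectopic bone that had grown around a BMP-2-loaded collagen sponge under the skin of the back. In all, 3 cell collections were made on day 10 after implantation (day 10, n = 3) and another 3 on day 14 (day 14, n = 3), and the question is how the OBs of the 2 days differ. According to the methods, all groups were male *Col2.3*-ECFP mice aged 12 to 16 weeks with 2.5 μg of BMP-2 per implant. In these mice a type I collagen promoter drives the cyan fluorescent protein ECFP, so that the sort selects cells in which that promoter is active. The bone was digested with trypsin and then with collagenase II, 1 time on day 10 and 2 times on day 14, and the sort left out CD45+ cells and dead cells. Day and digestion cannot be told apart. The titles put all 3 later samples on day 14, which was used here, while their descriptions give day 14, 15 and 16 for replicates 1, 2 and 3. The number of animals behind each sample is not given in the sources used here.

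SLRPs are secreted proteins built on a curved leucine-rich repeat domain, and most members also carry chondroitin, dermatan or keratan sulfate chains. They bind to the surface of collagen fibrils and help to set fibril width and spacing, and several also hold growth factors such as TGF-β and BMPs in the matrix. In bone, biglycan and decorin are abundant matrix proteoglycans, osteomodulin is found mainly in mineralised tissue, and keratocan and epiphycan are best known from cornea and growth plate cartilage.

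The mapped reads of each sample, estimated from the smallest steps between low FPKM values (fragments per kilobase of transcript, scaled to library size), ran from 4530500 to 7758500. At that depth 3 reads per kilobase of transcript correspond to 0.387 to 0.662 FPKM. All 10 OB markers examined were above 0 in every sample, with a summed level of 43248 to 85760 FPKM on day 10 and 28590 to 63500 FPKM on day 14. Day 14 replicate 2 stood apart from the other day 14 samples. Its 13 listed chondrocyte markers summed to 2496 FPKM, against 236 and 174 FPKM in day 14 replicates 1 and 3 and 792 to 1639 FPKM on day 10. Its 10 OB markers summed to 63500 FPKM, against 35347 and 28590 FPKM in day 14 replicates 1 and 3. For the SLRPs, the main calls and several fold changes are given with and without this sample. The order of levels and the ratio of the summed levels use all samples. In bulk samples such as these, fewer cells of a type and less RNA per cell cannot be told apart.

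Of the 4 places in the genome that hold the SLRP genes, those on chromosomes 10, 13 and 1 hold more than 1 of them. All positions are those of the mm10 build and the GENCODE vM21 annotation. On chromosome 10, *Dcn* (97479609 to 97518143), *Lum* (97565128 to 97572703), *Kera* (97606879 to 97613692) and *Epyc* (97644068 to 97682454) follow each other on the plus strand. On chromosome 13, *Aspn* (49544443 to 49567565), *Omd* (49582462 to 49592822) and *Ogn* (49608046 to 49624501) lie on the plus strand behind *Ecm2* (49504810 to 49532789), a related leucine-rich repeat gene that is not one of the 10. *Prelp* (133910304 to 133921414, minus strand) and *Fmod* (134037254 to 134048277, plus strand) lie 115.8 kb apart on chromosome 1, and *Bgn* (73483602 to 73495933, plus strand) lies on chromosome X without another member beside it.

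The 4 neighbours on chromosome 13 are shown by sequence because *Aspn*, *Ogn* and *Ecm2* had similar profiles over the samples while *Omd*, which lies between *Aspn* and *Ogn*, did not. The letters below are the 250 bases before the RefSeq start of each gene (GRCm38.p6, plus strand, 5′ to 3′), at chr13:49504560-49504809 for *Ecm2*, chr13:49544193-49544442 for *Aspn*, chr13:49582212-49582461 for *Omd* and chr13:49607765-49608014 for *Ogn*. Capitals mark matches, on either strand, to a TATA box (letters TATAAA), a RUNX site (letters TGTGGT), a GC box (letters GGGCGG) or an AP-1 site (letters TGANTCA).
Ecm2: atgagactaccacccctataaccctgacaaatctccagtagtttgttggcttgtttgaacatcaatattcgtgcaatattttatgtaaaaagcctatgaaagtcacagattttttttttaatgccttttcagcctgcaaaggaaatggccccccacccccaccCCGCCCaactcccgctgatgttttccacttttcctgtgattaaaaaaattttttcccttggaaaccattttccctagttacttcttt
Aspn: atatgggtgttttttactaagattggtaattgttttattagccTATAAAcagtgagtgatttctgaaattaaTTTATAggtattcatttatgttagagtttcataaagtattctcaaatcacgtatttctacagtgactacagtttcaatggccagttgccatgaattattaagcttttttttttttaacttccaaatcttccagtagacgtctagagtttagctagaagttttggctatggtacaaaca
Omd: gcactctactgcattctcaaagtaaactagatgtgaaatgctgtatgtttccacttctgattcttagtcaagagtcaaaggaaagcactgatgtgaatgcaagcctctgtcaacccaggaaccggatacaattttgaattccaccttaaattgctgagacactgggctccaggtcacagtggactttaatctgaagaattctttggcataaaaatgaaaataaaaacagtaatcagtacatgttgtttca
Ogn: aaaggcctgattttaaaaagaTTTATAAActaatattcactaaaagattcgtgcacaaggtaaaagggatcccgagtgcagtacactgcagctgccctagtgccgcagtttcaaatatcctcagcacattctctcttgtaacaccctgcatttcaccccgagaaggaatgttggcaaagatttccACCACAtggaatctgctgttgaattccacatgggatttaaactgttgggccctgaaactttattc

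The *Aspn* window held TATAAA at 207 and its reverse complement, TTTATA, at 178 bases before the start. The *Ogn* window held an overlapping pair of such matches at 229 and 227 bases, and ACCACA, the reverse complement of the RUNX letters, at 65 bases. The *Ecm2* window held CCGCCC, the reverse complement of the GC box letters, at 87 bases, and none of these letters were in the *Omd* window. Such matches are common, since of 32851 promoter windows of the same length 12.4% held the TATA letters, 14.0% the RUNX letters, 32.7% the GC box letters and 6.75% the AP-1 letters. The windows also differed in base composition, with a GC content of 30% for *Aspn*, 38.4% for *Omd*, 40% for *Ecm2* and 42% for *Ogn*. RefSeq windows were matched for 8 of the 10 members, all but *Dcn* and *Lum*. The *Bgn* window had the highest GC content of the single windows examined, 64.4%, with CCGCCC at 34, 10 and 6 bases before the start, the last 2 overlapping, and the windows of *Fmod*, *Prelp*, *Kera* and *Epyc* held none of the letters searched.

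Transcripts of *Bgn*, *Dcn*, *Lum* and *Fmod* were among the most abundant in the OBs, at ranks 10 to 41 by mean FPKM on the 2 days. The other members held ranks from 74 (*Aspn*, day 14) to 19203 (*Epyc*, day 14). On the per-length FPKM scale the 10 genes summed to 6432, 7893 and 7038 FPKM in day 10 replicates 1, 2 and 3, and to 8578, 11079 and 9844 FPKM in day 14 replicates 1, 2 and 3. Every day 14 sum lay above every day 10 sum, and that of day 14 replicate 2 was the highest. With all samples the means were 7121 ± 734 (SD, n = 3) and 9834 ± 1251 (SD, n = 3) FPKM, a ratio of 1.38. The ratio was 1.34 with samples scaled to their 75th percentile. It was 1.24 with samples rescaled to the sum of all but the 10 highest genes. As a share of all FPKM in a sample the 10 genes took 1.38% to 1.63% on day 10 and 1.85% to 2.28% on day 14. *Bgn*, *Dcn*, *Lum* and *Fmod* made up 84.8% to 91.5% of the SLRP sum in each of the 6 samples.

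**Figure D1:**
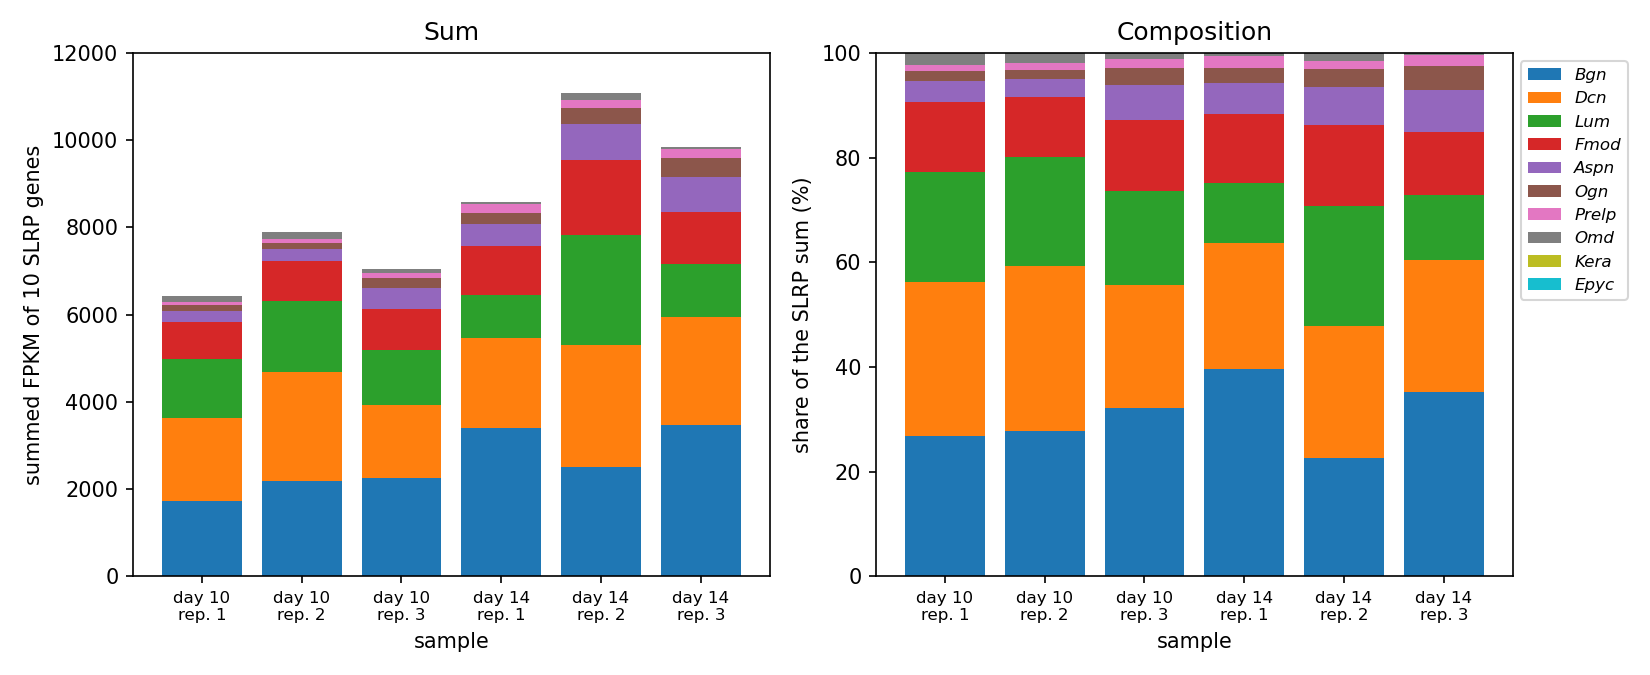
The left panel stacks the FPKM of the 10 SLRP genes in each sample and the right panel gives each gene as a percentage of that sum. The 3 day 14 bars (8578 to 11079 FPKM) are taller than the 3 day 10 bars (6432 to 7893 FPKM), and *Bgn*, *Dcn*, *Lum* and *Fmod* fill most of every bar.

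The order of levels was nearly the same on both days. On day 10 it ran *Bgn*, *Dcn*, *Lum*, *Fmod*, *Aspn*, *Ogn*, *Omd*, *Prelp*, *Kera* and *Epyc*, where *Bgn* and *Dcn*, *Ogn* and *Omd*, *Omd* and *Prelp*, and *Kera* and *Epyc* were neighbours whose samples overlapped. By mean FPKM *Bgn* was the gene of rank 12 among all those listed on day 10 and of rank 10 on day 14. On day 14 the order by mean of all 3 samples differed by 1 exchange, with *Prelp* above *Omd* in all 3 samples. The place of *Lum* above *Fmod* on day 14 leaned on replicate 2 (2530 against 1723 FPKM). *Lum* was below *Fmod* in replicate 1 (984 against 1134 FPKM) and just above it in replicate 3 (1215 against 1184 FPKM). The samples of *Bgn*, *Dcn*, *Lum* and *Fmod* overlapped from neighbour to neighbour on day 14, and the levels below *Fmod* were apart. *Kera* and *Epyc* stood far below the other 8 genes on both days, with mean levels under 1 FPKM.

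**Figure D2:**
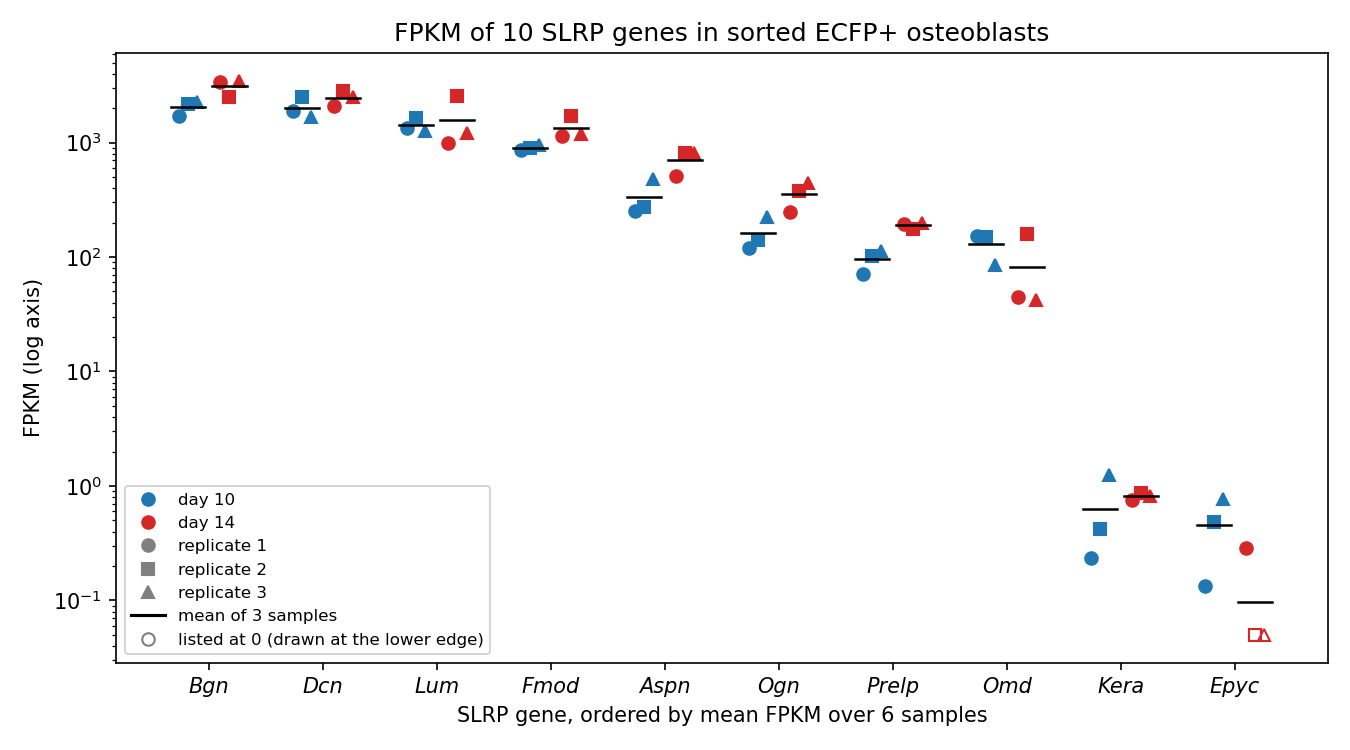
FPKM on a log axis for each SLRP gene, with day 10 samples in blue and day 14 samples in red, a symbol for each replicate number and a line at the mean of 3 samples. *Aspn*, *Ogn*, *Prelp*, *Bgn* and *Fmod* have all red points above all blue points, while *Omd* has 1 red point, replicate 2, at the level of the highest blue points.

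Between the days, 5 of the 10 genes were higher in every day 14 sample than in any day 10 sample, namely *Bgn*, *Fmod*, *Aspn*, *Ogn* and *Prelp*, and none was lower in every day 14 sample. Of the 19526 genes tested, 7.59% were higher and 6.67% lower in this sense. By limma on log2(FPKM + 0.1), none of the 10 had an adjusted p under 0.05, a threshold that 3 genes in all (0.0154% of those tested) passed. At an unadjusted p under 0.05 limma called 3 members, against 10% of all genes tested (5.6% higher and 4.4% lower on day 14). The 3 were *Aspn*, *Ogn* and *Prelp*, which were all higher on day 14 and also passed a fold of 2. Both criteria together were met by 3.83% of all genes tested, 1.79% higher and 2.04% lower. By the fold of 2 alone, which 13.6% of all genes passed, 3 members were higher (5.25% of all genes) and 1, *Epyc*, was lower (8.39% of all genes). Without day 14 replicate 2 the genes higher in every day 14 sample were *Bgn*, *Fmod*, *Aspn*, *Ogn* and *Prelp* as before (15.3% of all genes), *Lum* and *Omd* were lower in every day 14 sample (13.2% of all genes), and *Omd*, *Ogn* and *Prelp* met the p and the fold criterion (6.74% of all genes). The members that met both criteria were 1, *Epyc*, without day 10 replicate 1 (2.27% of all genes), 0 without day 14 replicate 3 (3.13%), and 0 when each sample was rescaled to the sum of all but the 10 highest genes (4.08%). In these 3 settings *Aspn*, *Ogn* and *Prelp* kept an unadjusted p under 0.05 and fell short of a fold of 2, with log2 fold changes of 0.93, 0.96 and 0.82, of 0.99, 0.97 and 0.99, and of 0.95, 0.99 and 0.86. The median log2 fold change was 0.56 over the 10 genes and -0.04 over all genes tested, and 8 of the 10 values were positive, against 46.5% of all genes. All 10 genes passed the filter of a mean above 0.1 FPKM. *Epyc* did so through its day 10 samples, so its calls as lower on day 14 are no independent result.

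**Figure D3:**
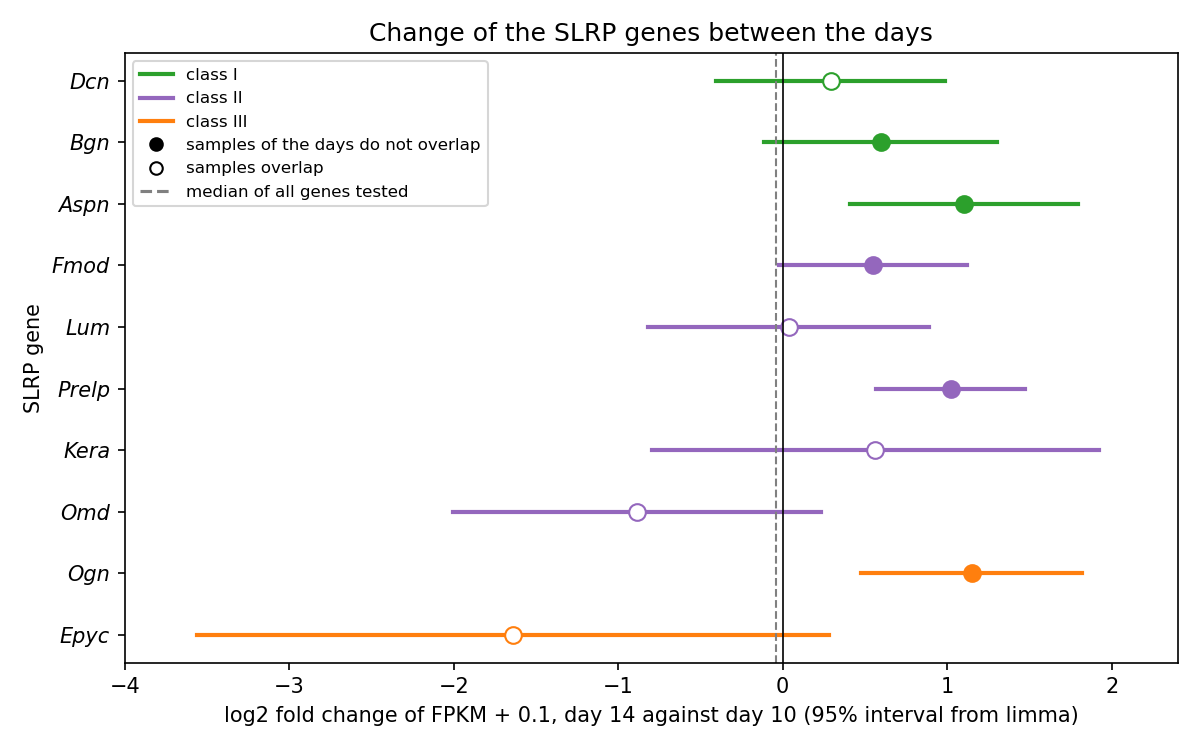
Log2 fold change of FPKM + 0.1 for day 14 against day 10, with the 95% interval from limma as a bar, coloured by SLRP class. Filled points mark genes whose samples of the 2 days do not overlap. The intervals of *Aspn* (0.41 to 1.8), *Ogn* (0.48 to 1.82) and *Prelp* (0.57 to 1.47) lie above 0, and those of the other 7 genes include 0.

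Among the class I genes, *Bgn* encodes biglycan, which carries chondroitin or dermatan sulfate chains and is known for its part in bone mass in mice. Its level was 1721, 2190 and 2260 FPKM on day 10 and 3394, 2498 and 3472 FPKM on day 14. All day 14 values exceeded all day 10 values, by a log2 fold change of 0.60 (SE 0.31) that did not pass the limma test (adjusted p = 0.581). *Dcn* encodes decorin, a collagen-binding proteoglycan that also binds TGF-β. It was at 1896, 2495 and 1657 FPKM in the day 10 samples, against 2067, 2808 and 2478 FPKM in those of day 14. The samples of the days overlapped, and the log2 fold change of 0.29 (95% interval -0.40 to 0.99) had an adjusted p of 0.818 in limma and was 0.19 without day 14 replicate 2. The ratio of *Bgn* to *Dcn* was 0.908, 0.878 and 1.36 on day 10 and 1.64, 0.890 and 1.40 on day 14, so that *Bgn* was the lower of the pair in day 10 replicates 1 and 2 and in day 14 replicate 2.

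*Aspn* encodes asporin, a class I protein without the attachment site for a sulfated chain that its relatives use, which binds collagen and calcium through a stretch of aspartates. Its level was 253, 273 and 480 FPKM in the day 10 samples, against 507, 806 and 805 FPKM in those of day 14. The highest day 10 sample, replicate 3, lay just under the lowest day 14 sample, replicate 1. The mean was 336 ± 126 (SD, n = 3) FPKM on day 10 and 706 ± 172 (SD, n = 3) FPKM on day 14, a 2.15-fold difference on the log2(FPKM + 0.1) scale with an unadjusted p of 0.00619 and an adjusted p of 0.322 in limma. The two-sided exact permutation test gave p = 0.1, the smallest value that 3 samples against 3 allow, for each of the 5 genes whose days did not overlap. By mean level *Aspn* stood at rank 149 of all genes listed on day 10 and at rank 74 on day 14.

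Of the class II genes, *Prelp* had the narrowest interval. It encodes a protein with a basic amino-terminal stretch that binds heparan sulfate and links basement membranes to collagen. Its level was 70.9, 103 and 112 FPKM on day 10 and 196, 176 and 198 FPKM on day 14. The days were well apart, with means of 95.3 ± 21.7 and 190.1 ± 12.4 FPKM (SD, n = 3 each). The difference was 2.03-fold on the log2(FPKM + 0.1) scale, with the lowest p of the 10 genes in limma (0.000747, adjusted p = 0.292). It was just under a fold of 2 as a ratio of the mean FPKM (1.995). The same held after scaling to the 75th percentile (log2 fold change 0.984) and without day 14 replicate 1 (0.997). *Fmod* encodes fibromodulin, a keratan sulfate proteoglycan that guides collagen cross-linking. Its day 10 samples, at 864, 905 and 947 FPKM, lay close together, and its day 14 samples were at 1134, 1723 and 1184 FPKM. Every day 14 sample of *Fmod* was higher than every day 10 sample, by a log2 fold change of 0.55 (95% interval -0.02 to 1.12, adjusted p = 0.519 in limma), which was 0.36 without day 14 replicate 2.

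*Lum* encodes lumican, the keratan sulfate proteoglycan best known for keeping collagen fibrils of the cornea evenly spaced. It was at 1354, 1632 and 1270 FPKM in the day 10 samples, against 984, 2530 and 1215 FPKM in those of day 14. Day 14 replicate 2 was the highest of the 6 samples, and the other day 14 samples were below all 3 day 10 samples. The log2 fold change was 0.04 (95% interval -0.82 to 0.89, adjusted p = 0.991 in limma) and was -0.37 without day 14 replicate 2, and it was also negative (-0.12) under the rescaling without the 10 highest genes. The ratio of *Lum* to *Fmod* was 1.57, 1.8 and 1.34 on day 10 and 0.868, 1.47 and 1.03 on day 14.

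*Omd* encodes osteomodulin, also called osteoadherin, a keratan sulfate proteoglycan of mineralised matrix that binds integrin. It was at 152, 150 and 85.2 FPKM in the day 10 samples, against 45.1, 160 and 42.3 FPKM in those of day 14. Day 14 replicate 2 lay at the level of the highest day 10 samples, whereas day 14 replicates 1 and 3 lay below every day 10 sample. With all samples the log2 fold change was -0.89 (95% interval -2.01 to 0.23, adjusted p = 0.602 in limma). Without day 14 replicate 2 it was -1.51, with the days apart and an adjusted p of 0.0639 in limma, and 76 genes in all had an adjusted p under 0.05. The summed chondrocyte markers were also highest in day 14 replicate 2. The summed OB markers were the highest of day 14 in that sample too, at 63500 FPKM against 35347 and 28590 FPKM in replicates 1 and 3. The part of either cell type in the *Omd* value was not tested.

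*Ogn* encodes osteoglycin, also called mimecan, a class III protein first purified from bone. It was at 121, 142 and 226 FPKM in the day 10 samples, against 249, 379 and 447 FPKM in those of day 14. Day 10 replicate 3 again came closest to the day 14 samples. The difference of the means, 163 ± 55.4 against 359 ± 101 (SD, n = 3 each) FPKM, was 2.22-fold on the log2(FPKM + 0.1) scale, with an unadjusted p of 0.00405 and an adjusted p of 0.310 in limma. *Ogn* held rank 339 on day 10 and rank 160 on day 14 among all genes by mean level.

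*Kera* and *Epyc*, which encode the cornea and cartilage proteins keratocan and epiphycan, were close to the limit of detection. *Kera* was at 0.234, 0.417 and 1.25 FPKM in the day 10 samples, against 0.753, 0.870 and 0.812 FPKM in those of day 14, which correspond to an estimated 2.36 to 19.9 reads per sample. The samples of the days overlapped, and the log2 fold change of 0.56 had a 95% interval of -0.80 to 1.92. *Epyc* was at 0.135, 0.480 and 0.762 FPKM in the day 10 samples and at 0.289 FPKM in day 14 replicate 1, and it was listed at 0 in day 14 replicates 2 and 3. A level of 3 reads in those 2 samples would have been 0.219 and 0.184 FPKM, above day 10 replicate 1 and below day 10 replicates 2 and 3. The days did not overlap without day 10 replicate 1, the lowest day 10 value, or without day 14 replicate 1, the only day 14 value above 0. Given the other values, leaving out either sample had to separate the days. The unadjusted p in limma was 0.0499 and 0.0179 in these fits, which are no further support for a decrease. The fitted log2 fold change of *Epyc* was -1.64 (95% interval -3.56 to 0.28) and depended on the pseudocount, since it was -0.40 with a pseudocount of 1 and -3.61 with 0.01.

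The 3 members of the chromosome 13 group did not share a profile. Per sample, *Ogn* stood to *Omd* at 0.795, 0.947 and 2.65 on day 10 and at 5.53, 2.37 and 10.6 on day 14. In day 10 replicates 1 and 2 the levels of the pair were similar, and in day 14 replicate 3 *Ogn* was 10.6 times as high. The ratio of *Aspn* to *Ogn* stayed between 1.8 and 2.13 in all 6 samples. *Ecm2*, next to *Aspn* on its other side, was at 10.2, 7.99 and 12.04 FPKM in the day 10 samples, against 20.2, 21.5 and 23.2 FPKM in those of day 14. All its day 14 samples were higher than its day 10 samples (log2 fold change 1.11, SE 0.19, adjusted p = 0.236 in limma). The whole group lies within the span of *Cenpp* (49464023 to 49652785) on the opposite strand, whose own level was 0.517 to 4.70 FPKM and which shares 7 exon bases with *Aspn* and 0 with *Omd*, *Ogn* and *Ecm2*. The counting is not stated to use strand.

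**Figure D4:**
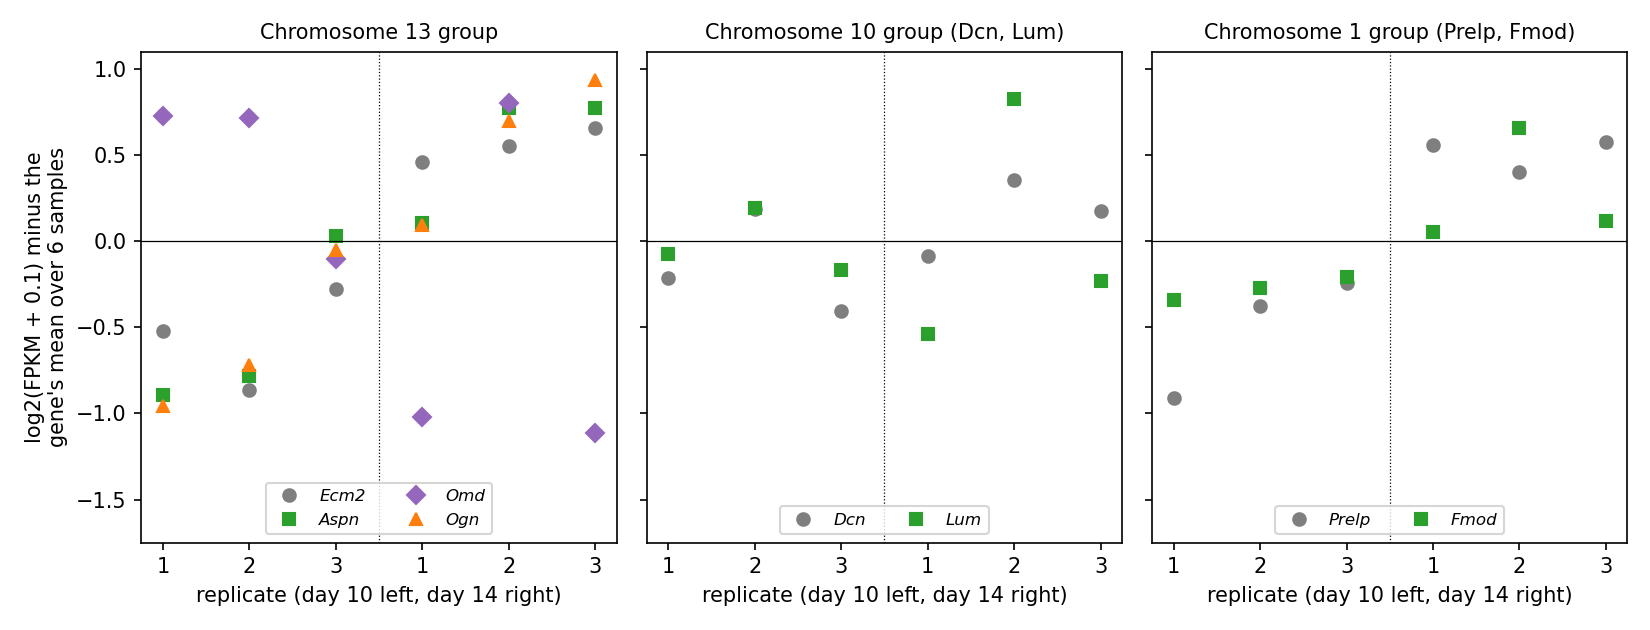
Each panel shows neighbouring genes of 1 chromosome as log2(FPKM + 0.1) of each sample minus the mean of the gene over the 6 samples, with the day 10 replicates left and the day 14 replicates right of the dotted line. *Aspn* and *Ogn* lie close together in every sample, whereas *Omd* is high in day 10 replicates 1 and 2 and in day 14 replicate 2 and low in day 14 replicates 1 and 3.

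Profiles were compared by the root mean square difference of centred log2(FPKM + 0.1) over the 6 samples, among the 11162 genes with a mean of at least 1 FPKM. By this measure *Aspn* was the gene nearest to *Ogn*, and *Ogn* the gene nearest to *Aspn*, out of 11161 others, with a difference of 0.0884. The next genes were *Fam107b* (0.119) and *Lama2* (0.129) for *Ogn*, and *Col8a1* (0.162) and *Smoc2* (0.168) for *Aspn*. *Ecm2* was at place 65 from *Ogn* (0.288) and 46 from *Aspn* (0.268). It was as close to *Prelp* on chromosome 1 (0.268), and *Prelp* was at place 96 from *Ogn* (0.314) and 116 from *Aspn* (0.323). *Omd* was 1.31 away from *Ogn* and 1.27 away from *Aspn*, and its own nearest genes, *Cspg4* (0.183), *Slc43a2* (0.210) and *Smad6* (0.212), were less close. Nearest to *Prelp* were *Pcdhga4* (0.0655), the follistatin gene *Fst* (0.0962) and *1810014F10Rik* (0.10). For *Bgn* these were *Il6st* (0.0531), the BMP antagonist gene *Chrd* (0.0584) and *Prosc* (0.0615). The nearest genes were *Pi4k2a* (0.0511), *Mtmr12* (0.0663) and *Ipo7* (0.0723) for *Dcn*, *Nudt4* (0.0502), *Vasn* (0.0654) and *Hsp90ab1* (0.0723) for *Fmod*, and *Col4a5* (0.0923), *Kbtbd7* (0.109) and *Iqsec1* (0.140) for *Lum*. All of these values come from the same 6 samples and are a description of them.

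The other neighbourhoods were mixed in the same way. *Dcn* and *Lum* were among the most abundant genes on both days, while *Kera*, 34.2 kb downstream of *Lum*, and *Epyc*, another 30.4 kb on, were close to 0. *Prelp* and *Fmod* were both higher in every day 14 sample, and *Optc*, the opticin gene 2.3 kb from *Prelp*, was at 0.212 to 1.06 FPKM in the day 10 samples and 0.200 to 0.788 FPKM in those of day 14. *Prelp* shares 350 exon bases with the antisense gene *Gm15851*, and *Epyc* shares 1041 with the non-coding gene *Gm10754*, listed at 0 to 0.307 FPKM, so that reads of these pairs may not be told apart. Of the 8 further SLRP family genes examined, *Ecm2* was the only 1 with an unadjusted p under 0.05 in limma (10% of all genes, 5.6% higher on day 14). *Podn* was at 15.4 ± 8.18 and 29.2 ± 15.7 FPKM, *Podnl1* at 8.37 ± 2.07 and 14.4 ± 8.77 FPKM (day 10 and day 14, SD, n = 3 each), and both overlapped between the days. *Chad*, the chondroadherin gene, was at 20.8, 17.6 and 10.7 FPKM in the day 10 samples, against 0.756, 109 and 4.89 FPKM in those of day 14, with the high value in replicate 2 and the other day 14 values below every day 10 value.

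SLRPs coat collagen fibrils, and their level was therefore also set against that of the type I collagen genes. *Col1a1* was at 26293 ± 8462 FPKM in the day 10 samples, against 16989 ± 3636 FPKM in those of day 14 (SD, n = 3 each), and the samples overlapped. For every 100 FPKM of *Col1a1* and *Col1a2* together, the SLRP sum was 14.6, 14.1 and 24.7 FPKM on day 10 and 32.1, 31.1 and 39.8 FPKM on day 14. All 3 day 14 ratios were higher than all 3 day 10 ratios, with means of 17.8 ± 6.0 and 34.3 ± 4.77 (SD, n = 3 each). Since FPKM are shares of a sample, genes as abundant as *Col1a1* also set the scale on which the SLRPs are read. With each sample rescaled to the sum of all but the 10 highest genes, the median log2 fold change of all genes was -0.18, a shift of -0.14, and *Aspn* and *Ogn* then overlapped between the days while *Bgn*, *Fmod* and *Prelp* stayed apart.

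Of the other collagen and elastic fibre genes, the type VI collagen genes *Col6a1* and *Col6a2*, whose microfibrils bind biglycan and decorin, were higher in every day 14 sample. *Col6a1* was at 907 ± 182 and 1416 ± 80.3 FPKM and *Col6a2* at 626 ± 108 and 944 ± 58.5 FPKM (day 10 and day 14, SD, n = 3 each), with adjusted p of 0.423 and 0.407 in limma. *Col11a1*, a regulator of fibril assembly in cartilage and bone, was at 183 ± 72.6 and 71.0 ± 51.8 FPKM with overlapping samples. Over the 14 genes of this list, 4 were higher and 1 lower at an unadjusted p under 0.05, a threshold passed by 5.6% (higher) and 4.4% (lower) of all genes, and 0 passed an adjusted p under 0.05.

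The enzymes that build the sulfated chains showed no common direction. Of 22 genes of chondroitin and dermatan sulfate synthesis, 3 were higher and 3 lower on day 14 at an unadjusted p under 0.05 (5.6% and 4.4% of all genes), with a median log2 fold change near 0. *B3gat3*, which completes the linker to the core protein, was at 24.5 ± 3.09 and 17.3 ± 1.98 FPKM, and *Dse*, the epimerase that turns chondroitin into dermatan sulfate, was at 24.3 ± 4.5 and 35.8 ± 4.79 FPKM (day 10 and day 14, SD, n = 3 each). Both were apart between the days, *B3gat3* lower (adjusted p = 0.379 in limma) and *Dse* higher (adjusted p = 0.384). The sulfotransferase gene *Chst13* was lower in every day 14 sample, at 18.0 ± 7.74 and 5.29 ± 4.68 FPKM, and *Chpf*, the most abundant of the list, was at 147 ± 10.0 and 151 ± 9.61 FPKM.

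For keratan sulfate, the chain of *Fmod*, *Lum*, *Omd* and *Kera*, 7 of 8 synthesis genes could be tested, and 2 were higher and 1 lower at an unadjusted p under 0.05 (5.6% and 4.4% of all genes). *B3gnt7*, an enzyme that extends the chain, was at 3.16, 1.98 and 1.56 FPKM in the day 10 samples, against 0.183, 0.565 and 0 FPKM in those of day 14 (adjusted p = 0.305 in limma). The sulfotransferase gene *Chst1* showed the opposite direction, with 2.93 ± 0.30 and 4.74 ± 0.560 FPKM (day 10 and day 14, SD, n = 3 each, adjusted p = 0.391 in limma). Both genes were apart between the days. *B3gnt2* was at 18.4 ± 2.18 and 28.0 ± 8.44 FPKM and *B4galt1*, the most abundant of the list, at 76.3 ± 10.9 and 95.4 ± 15.1 FPKM, with overlapping samples. Of 6 genes of sulfate supply, 2 were lower at an unadjusted p under 0.05 (4.4% of all genes), among them *Papss1*, which makes the sulfate donor, at 31.2 ± 6.14 and 22.4 ± 3.62 FPKM with overlapping samples. The most abundant gene of that list, the sulfate donor transporter *Slc35b2*, was at 64.1 ± 10.2 and 53.5 ± 8.95 FPKM.

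Among 18 genes of growth factors and receptors that SLRPs are known to bind or affect, 4 were higher and 1 lower on day 14 at an unadjusted p under 0.05 (5.6% and 4.4% of all genes). *Bmp4* was at 5.37, 3.76 and 1.72 FPKM in the day 10 samples, against 0.490, 1.04 and 0.158 FPKM in those of day 14, lower in every day 14 sample (adjusted p = 0.305 in limma). The decorin receptor gene *Egfr* was at 23.1 ± 5.63 and 44.1 ± 12.3 FPKM and *Tgfbr1* at 8.83 ± 0.782 and 12.4 ± 0.721 FPKM (day 10 and day 14, SD, n = 3 each). Both were higher in every day 14 sample, with adjusted p of 0.337 and 0.395 in limma. *Itgb1*, an integrin subunit gene and the most abundant of the list, was at 234 ± 8.94 and 259 ± 42.5 FPKM.

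Of 12 tested protease genes whose products cut SLRPs or their propeptides, 7 were higher and 0 lower in every day 14 sample (7.59% and 6.67% of all genes), and 3 were higher at an unadjusted p under 0.05 (5.6% of all genes). *Adamts5* was at 5.75 ± 1.05 and 9.78 ± 2.39 FPKM, *Htra1* at 116 ± 4.71 and 181 ± 52.5 FPKM, and *Gzmb* at 0.913 ± 0.293 and 2.57 ± 0.863 FPKM (day 10 and day 14, SD, n = 3 each). Their adjusted p were 0.373, 0.433 and 0.340 in limma. The lowest *Gzmb* value, 0.601 FPKM in day 10 replicate 2, lay near the level of 3 reads per kilobase in that sample (0.540 FPKM). *Mmp2*, the most abundant of the list, was at 1057 ± 111 and 1384 ± 129 FPKM. The median log2 fold change of the list was 0.61. Over all 7 lists, 25 of 87 tested genes had an unadjusted p under 0.05, against 10% of all genes, of which 17 were higher and 8 lower (5.6% and 4.4% of all genes), none had an adjusted p under 0.05, and the median log2 fold change was 0.24.

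Several SLRPs are also abundant in fibroblasts, tendon and cartilage, and markers of these cells were therefore set beside the SLRP values. All 11 tendon and fibroblast markers were above 0 in every sample. They summed to 639, 696 and 1220 FPKM on day 10 and to 1910, 1060 and 2705 FPKM on day 14. Day 14 replicate 2 lay below day 10 replicate 3. Of the 11 genes, 0 were apart between the days (14.3% of all genes), with a median log2 fold change of 0.92. At an unadjusted p under 0.05 in limma, 3 of the 11 were higher on day 14 (5.6% of all genes). These were *Mfap5* (2.57-fold, adjusted p = 0.340), *Cd34* (2.25-fold, adjusted p = 0.495) and *Ly6a* (1.89-fold, adjusted p = 0.445). The log2 fold changes of *Scx* (-0.54) and *Pdgfra* (-0.02) were negative, and those of the other markers in the list were positive. *Aspn* and *Ogn* were at 806 and 379 FPKM in day 14 replicate 2, where the tendon and fibroblast sum was the lowest of day 14. Most of that sum of 1060 FPKM came from *Mfap5* (476 FPKM) and *Ly6a* (302 FPKM). *Tnmd* (65.9, 132 and 145 FPKM in day 14 replicates 1, 2 and 3), *Scx* (6.36, 8.90 and 4.12 FPKM) and *Dpt* (38.1, 45.8 and 145 FPKM) were not lowest in replicate 2. The other markers of the list were. *Aspn* and *Ogn* were at 480 and 226 FPKM in day 10 replicate 3, where both genes and the summed list were the highest of day 10. The 10 OB markers had a median log2 fold change of -1.25, with every value negative. Only 1 of them, *Sp7*, was lower in every day 14 sample (6.67% of all genes). *Sp7*, a transcription factor that OBs require, was at 73.7, 51.1 and 40.1 FPKM in the day 10 samples, against 9.79, 27.9 and 4.09 FPKM in those of day 14 (adjusted p = 0.309 in limma). The part of any of these cell types in the SLRP values was not tested.

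The sums of the other marker lists overlapped between the days. The myeloid markers summed to 37.5, 361 and 117 FPKM on day 10 and to 248, 10.6 and 598 FPKM on day 14. Endothelial markers summed to 1.16 to 2.88 FPKM on day 10 and 2.80 to 5.38 FPKM on day 14. Of the 5, 2 were higher in every day 14 sample (7.59% of all genes), *Pecam1* and *Emcn*. Their values, 0 to 1.35 FPKM, lay near or below the level of 3 reads per kilobase in several samples. The adipocyte markers, with *Cfd* at 0 in all samples, summed to 8.68 to 17.0 and 15.2 to 30.7 FPKM. The osteocyte markers summed to 181 to 989 FPKM on day 10 and 41.5 to 452 FPKM on day 14, the pericyte and smooth muscle markers to 270 to 610 and 368 to 475 FPKM, and the skeletal muscle markers to 0.359 to 8.53 and 0.304 to 0.799 FPKM.

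**Figure D5:**
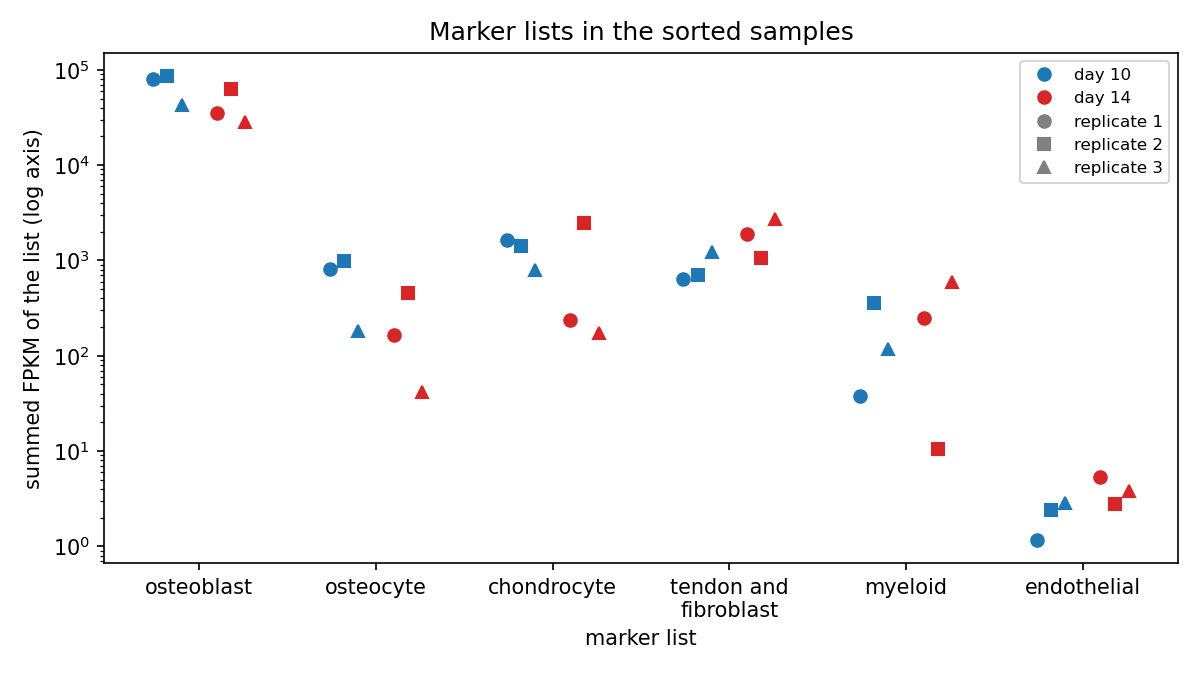
Summed FPKM on a log axis of the markers of 6 cell types, with day 10 samples in blue, day 14 samples in red and a symbol for each replicate number. Day 14 replicate 2 has the highest chondrocyte sum (2496 FPKM) and the lowest myeloid sum (10.6 FPKM), and the tendon and fibroblast sums of the days overlap.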

How the data were processed

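RNA-seq values of ECFP+ OBs were analysed for 3 samples per day. Per the submitters' processing notes and the methods, the authors used Casava 1.8.2 for base calling, aligned single-end reads of 75 bases with TopHat2 2.0.13, Bowtie2 2.2.3 and SAMtools 0.1.19 against mm10, and computed the deposited FPKM with Cufflinks 2.2.1. The gene annotation and the handling of reads shared by several genes are not given in the sources used here. FPKM are per length and relative to the whole library, so very abundant genes set the scale.

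In the table of 1 sample, 25 symbols read as dates and were set back from the gene order, which the tables share. Of the genes listed, 89.8% were matched to GENCODE vM21. Read depth was estimated from steps of low FPKM values (up to 0.3) in 1977 genes with a single transcript, at a fragment length of 230 bases, where 75.4% to 79.9% of values came within 0.1 of a whole read. Read numbers given are estimates.

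The main test was limma 3.58.1 in R 4.3.3 (lmFit, eBayes with trend) with the day as the only factor. It was run on log2(FPKM + 0.1) of the deposited values for 19526 genes whose mean exceeded 0.1 FPKM, with Benjamini-Hochberg adjustment over all of them. Fold changes are on that scale, which understates those of low genes. A two-sided exact permutation test was run for each member. The script was tested on simulated data. P-values measure the spread between these samples, which the labels call biological replicates.

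The members and gene lists were chosen with earlier results of these data known, and no list was tested as a set. Named genes are the members, their relatives beside them in the genome, the 3 genes with the lowest p and the most abundant gene of each list, the 3 genes nearest in profile to each member, and markers that move with a result. Some of them are left out. Promoter windows are from RefSeq (GRCm38.p6). Alternatives were other pseudocounts, filters, scalings and variance models, a replicate block, a ratio of mean FPKM, and fits without 1 of the 6 samples.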

Additional observations from a re-analysis of the deposited data

How the results depend on the processing

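No SLRP gene had an adjusted p under 0.05 in limma under any of the 15 other settings fitted, where the lowest was 0.0639 for *Omd* without day 14 replicate 2. The filter does not enter the fold changes but moved p, so that with a mean above 1 FPKM, where *Kera* and *Epyc* are not tested, *Bgn* and *Fmod* also had an unadjusted p under 0.05 in limma (adjusted p = 0.277 and 0.287, against adjusted p = 0.947 and 0.785 with no filter). Rescaling to the sum without the 10 highest genes shifted the median log2 fold change of all genes by -0.14 and left 0 members with an unadjusted p under 0.05 and a fold over 2 (4.08% of all genes), 2 (14.4%) with a fold over 2 in either direction (4 with all settings as in the report) and 3 (4.14%) higher in every day 14 sample. Array weights gave 5 members (6.91% of all genes) and 10 pathway genes with an unadjusted p under 0.05 and a fold over 2, and the 2 members gained, *Omd* (log2 fold change -1.03) and *Epyc* (-2.04), were lower on day 14.

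Leaving out each sample in turn gave 0 to 3 members with an unadjusted p under 0.05 and a fold over 2 (2.27% to 8.48% of all genes), namely 0 without day 14 replicate 3 and 1, *Epyc*, without day 10 replicate 1. It gave 1 to 6 members with a fold over 2 (13.5% to 21.4% of all genes), 5 to 6 members higher in every day 14 sample (9.52% to 15.3%), and 0 to 2 members lower in every day 14 sample (8.97% to 19%). Those lower were *Epyc* without day 10 replicate 1 or day 14 replicate 1, and *Lum* and *Omd* without day 14 replicate 2. For *Epyc* the sample left out was its lowest of day 10 or its only day 14 sample above 0. Over the same settings the log2 fold change was 0.93 to 1.39 for *Aspn*, 0.96 to 1.41 for *Ogn*, 0.82 to 1.15 for *Prelp*, 0.47 to 0.75 for *Bgn*, 0.36 to 0.66 for *Fmod*, 0.16 to 0.46 for *Dcn* and -1.51 to -0.55 for *Omd*. That of *Lum* changed sign and ran from -0.37 to 0.31, with -0.04 without day 10 replicate 3, and it was -0.0001 after scaling to the 75th percentile and -0.12 after rescaling to the sum without the 10 highest genes. In the 7 pathway lists, 0 to 1 genes had an adjusted p under 0.05, the 1 being *Col2a1* (log2 fold change -4.77, adjusted p = 0.00225 in limma) without day 14 replicate 2. Between 4 and 16 had an unadjusted p under 0.05 and a fold over 2, with 12 without day 10 replicate 3 and 16 without day 14 replicate 2. The causes were not tested.

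The labels give replicates 1, 2 and 3 on both days, but the departures of samples with 1 number from the mean of their day correlated across genes by only 0.0580, -0.00584 and 0.0887, so the numbers were not taken as pairs. With the replicate number as a block, limma gave 2 genes with an adjusted p under 0.05 among all genes. Still 3 members had an unadjusted p under 0.05 and a fold over 2 (4.3% of all genes). The lowest adjusted p in limma among the members was then 0.140, for *Ogn*. Among the members, depth limits *Kera* and *Epyc*, with at most an estimated 19.9 reads per sample. It also limits *Optc*, *B3gnt7*, *Bmp4* and *Gzmb*, which have values near or below the level of 3 reads per kilobase in some samples.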
